A study of Mus musculus with 28 samples.

Results

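The lysosome and proton pump genes are 43 mouse genes taken by their symbols: 10 proteases, 7 glycosidases, 8 genes of lipid turnover, 6 membrane proteins, 10 subunits of the vacuolar proton pump and 2 transcription factors, Tfeb and Tfe3.
All 43 were found by gene ID among the 35880 genes of the deposited table, and all 43 of 43 were among the 14887 genes with enough reads to be tested.
Levels below are CPM, estimated counts scaled to the TMM-adjusted library total.
They were measured by mRNA sequencing of whole-lung homogenate from male wild-type C57BL/6 mice, an inbred strain, whose age the labels give as 8 to 12 weeks.
The 8 groups were lungs exposed to carbon black and ozone together (CB-O3), to ozone alone (O3), to carbon black alone (CB) and to air (Sham), each on Day1 and on Day4.
Carbon black, a soot-like particle aerosol, was given at 10 mg/m3, and ozone, an oxidant gas, at 2 ppm, for 3 h per exposure.
Day1 lungs had 1 exposure, with 4 libraries in each group, and Day4 lungs had 4 daily exposures, with 3 libraries in each group, so the day and the number of exposures cannot be told apart.
The design asks how each exposure differs from air, whether the 2 agents together differ from either alone, and whether repeating the exposure changes the response. The 28 libraries held between 5135492 and 9718770 estimated counts each.
The 10 markers of alveolar type 2 cells, the surfactant-making cells of the lung, summed to between 24210 and 31230 CPM in every library, and none was at 0 in any group.
In 4 libraries the muscle actin gene Acta1 lay above 100 CPM: CB-O3 Day4 replicate 3 at 215 CPM, O3 Day1 replicate 2 at 269 CPM, CB Day4 replicate 3 at 123 CPM and Sham Day1 replicate 2 at 607 CPM, against at most 2.85 CPM in the others.
Counts of calls that change without these 4 libraries are given beside the result.

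Lysosomes are acidic organelles in which hydrolases break down proteins, sugars and lipids brought in by endocytosis, phagocytosis and autophagy.
The vacuolar proton pump (V-ATPase) acidifies them: its membrane sector, V0, carries the protons and its outer sector, V1, burns the ATP.
TFEB and TFE3 are transcription factors that enter the nucleus when nutrient signalling through mTORC1 falls, and they bind an E-box motif in the promoters of many lysosomal genes.
In lung, macrophages take up particles and surfactant into lysosomes, and alveolar type 2 cells store surfactant in lamellar bodies, which are related to lysosomes.

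The E-box hexamer CACGTG, which reads the same on both strands, was looked for in the RefSeq promoter window of each gene (GRCm38.p6, 250 bases before to 50 bases after the start).
Of the 43 genes, 36 had a window, and 12 of the 36 (33.3%) held the hexamer, against 8.09% of 27025 gene symbols with a window.
The longer motif TCACGTG, which contains the hexamer and was searched on both strands, was in 11 of the 36 (30.6%), against 4.29% of symbols.
The 12 genes were Atp6v0b, Atp6v0d1, Atp6v1a, Ctsa, Ctsd, Ctsl, Gaa, Gla, Glb1, Lamp1, Lgmn and Mcoln1.
A match is a run of letters, not a measured binding site.
Of the 12 genes with the hexamer, 6 were higher after ozone on Day4 and 6 after co-exposure, and of the 24 without it 15 and 13 were higher.
Of the genes with the hexamer, the log2 fold change on Day4 ran from -0.11 (Ctsl) to 0.86 (Ctsd) after co-exposure, with a median of 0.26, and from -0.16 (Ctsl) to 1.15 (Ctsd) after ozone, with a median of 0.35.
Of those without it, it ran from -0.23 (Tfe3) to 1.16 (Cd68) after co-exposure, with a median of 0.31, and from -0.08 (Tfe3) to 1.46 (Cd68) after ozone, with a median of 0.33.
Shown 5′ to 3′ are the 3 genes with the hexamer that rose most after ozone on Day4 (Ctsd, Lgmn and Glb1), the gene with most copies (Lamp1), and the 3 without it that rose most (Cd68, Ctss and Npc2), with the hexamer in capitals.
Each stretch has up to 100 bases with no annotated exon, so for Ctsd, with 2 copies in its window, it is short and holds 1 of them, and for Lgmn it lies at the RefSeq start whose window holds the hexamer.
They are Ctsd (chr7:142388039-142388077, minus strand), Lgmn (chr12:102439093-102439192, minus strand), Glb1 (chr9:114400976-114401075, plus strand), Lamp1 (chr8:13159061-13159160, plus strand), Cd68 (chr11:69666171-69666270, minus strand), Ctss (chr3:95526686-95526785, plus strand) and Npc2 (chr12:84773153-84773250, minus strand).
Ctsd: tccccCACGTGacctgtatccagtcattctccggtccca
Lgmn: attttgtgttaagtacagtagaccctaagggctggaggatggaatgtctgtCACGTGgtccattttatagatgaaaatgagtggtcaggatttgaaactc
Glb1: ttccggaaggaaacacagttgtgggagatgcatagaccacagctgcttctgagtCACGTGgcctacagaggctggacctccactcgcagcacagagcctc
Lamp1: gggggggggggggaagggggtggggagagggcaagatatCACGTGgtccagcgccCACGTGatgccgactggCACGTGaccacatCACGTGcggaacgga
Cd68: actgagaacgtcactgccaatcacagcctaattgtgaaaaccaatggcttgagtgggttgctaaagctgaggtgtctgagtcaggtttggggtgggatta
Ctss: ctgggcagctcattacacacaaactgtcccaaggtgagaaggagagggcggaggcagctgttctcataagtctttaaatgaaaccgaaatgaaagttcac
Npc2: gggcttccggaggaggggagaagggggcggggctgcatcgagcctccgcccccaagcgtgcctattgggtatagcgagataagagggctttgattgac

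Both sets thus hold genes with large changes, and both hold genes that did not pass, such as Lamp1 with 4 copies; 7 of the 43 genes, Ctsh among them, had no window to read.

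Levels differed widely among the genes before any exposure.
Per kilobase of the longest coding transcript, Psap, the precursor of the saposins that help degrade sphingolipids, was at 354 ± 27.2 CPM per kb in Sham Day1 lungs (SD, n = 4).
Lamp1, the main glycoprotein of the lysosomal membrane, was at 345 ± 7.34 CPM per kb and Npc2, the soluble cholesterol carrier of the lysosome, at 325 ± 20.9 CPM per kb, and the spreads of these 3 genes overlapped.
Ctsd, the aspartic protease cathepsin D, followed at 259 ± 21.4 CPM per kb.
At the low end stood Glb1, beta-galactosidase, at 10.2 ± 0.78 CPM per kb, Tfeb at 7.60 ± 1.1 CPM per kb, and Gla, alpha-galactosidase A, at 3.78 ± 0.437 CPM per kb. This order depends on the length used, such as 3299 bases for Npc2 and 2657 for Psap. The longest transcript need not be the one expressed.
Between air-exposed lungs of the 2 days (Day4 against Day1), 0 of the 43 genes passed edgeR's quasi-likelihood test, where 0% of all genes did.
In that comparison 1 gene was higher and 5 were lower at an unadjusted p under 0.05, and DESeq2 and limma-voom each called 0.

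After 4 exposures to ozone, 25 of the 43 genes were higher than in sham lungs and 0 were lower, and after 4 co-exposures 23 were higher and 1, Tfe3, was lower (edgeR, Benjamini-Hochberg adjusted p under 0.05).
Among all genes tested, ozone raised 11.7% and lowered 9.07% on that day, and co-exposure raised 17.7% and lowered 16.3%.
The median log2 fold change of the 43 genes was 0.33 after ozone and 0.30 after co-exposure, while the median of all genes was within 0.01 of 0.
The 0 lower after ozone was also 0 at an unadjusted p under 0.05, and 0 with DESeq2 and with limma-voom.
All 3 ozone libraries lay above all 3 sham libraries for 36 of the 43 genes, against 22.5% of all genes, and all 3 co-exposure libraries did so for 22, against 20.7%.
The 2 comparisons share their sham libraries.
They called 20 genes higher in common, which is 20 of the 25 for ozone and 20 of the 23 for co-exposure.
In whole-lung RNA, a change in the number of cells of a type and a change in RNA per cell cannot be told apart. The labels do not say that each library is a separate mouse, so a p-value is set against the library-to-library spread, which may be technical.
When the fit held the sham and CB-O3 libraries of Day4 alone, co-exposure called 14 genes higher.
Without the 4 libraries with muscle RNA, 23 genes were higher after co-exposure, with Lipa gained and Atp6v1d lost, and 26 after ozone, with Lamp2 gained.

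**Figure D1:**
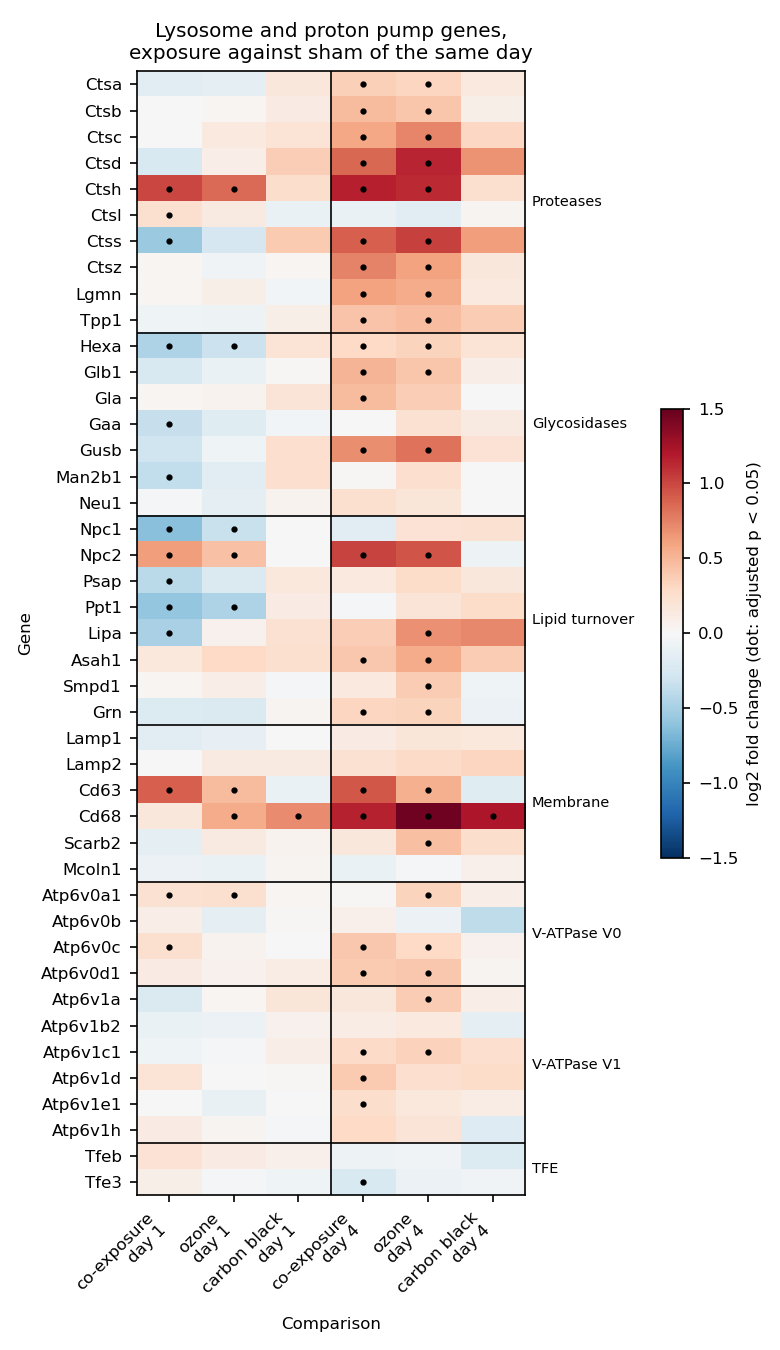
Log2 fold change against same-day sham lungs for each of the 43 genes (rows, by role) in 6 comparisons (columns: co-exposure, ozone and carbon black on Day1, then on Day4). Colour runs from −1.5 to 1.5 and a dot marks an adjusted p under 0.05; the Day4 ozone and co-exposure columns hold 25 and 24 dots, and the carbon black columns 1 each.

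Of the proteases on Day4, 9 of 10 were higher after co-exposure, with a median log2 fold change of 0.60, and 9 of 10 after ozone, with a median of 0.58.
Ctsh, cathepsin H, an aminopeptidase that processes surfactant proteins B and C in alveolar type 2 cells (in GRCm38 at chr9:90054152-90076089), was at 659, 579.6 and 629 CPM in CB-O3 lungs and 538, 689 and 584 CPM in O3 lungs, against 291, 281 and 264 CPM in sham lungs.
Every exposed library lay well above every sham library, with log2 fold changes of 1.16 ± 0.16, adjusted p = 3.64e-06 for co-exposure and 1.12 ± 0.16, adjusted p = 1.17e-05 for ozone (± SE here and below).
Ctsd (chr7:142375911-142388038) was at 1004, 768 and 558 CPM in CB-O3 lungs and 1074, 834 and 924 CPM in O3 lungs, against 494, 414 and 372 CPM in sham lungs.
The groups did not overlap, though CB-O3 replicate 3 lay near the highest sham library; the log2 fold change was 0.86 ± 0.16, adjusted p = 0.000146 for co-exposure and 1.15 ± 0.16, adjusted p = 8.32e-06 for ozone. Ctss, cathepsin S, which trims the invariant chain in antigen-presenting cells (chr3:95526786-95556403), was at 311, 260.1 and 169.8 CPM in CB-O3 lungs and 259.8, 247 and 299.8 CPM in O3 lungs, against 152, 117 and 128 CPM in sham lungs.
Again no exposed library reached down to the sham range, and CB-O3 replicate 3 was the lowest of the exposed ones (log2 fold change 0.90 ± 0.18, adjusted p = 0.000437 for co-exposure; 1.02 ± 0.18, adjusted p = 0.000219 for ozone).
Ctsz, a carboxypeptidase cathepsin with a small spread, was at 211, 236 and 199.8 CPM in CB-O3 lungs and 193, 188 and 203 CPM in O3 lungs, against 133, 123 and 129 CPM in sham lungs.
Its groups stood clear of each other, with log2 fold changes of 0.75 ± 0.08, adjusted p = 7.64e-08 for co-exposure and 0.60 ± 0.08, adjusted p = 4.03e-06 for ozone. Cathepsin C (Ctsc), which activates the serine proteases of leukocyte granules, rose by 0.58 after co-exposure and 0.73 after ozone on the log2 scale.
Legumain (Lgmn), the asparaginyl endopeptidase that activates other cathepsins, rose by 0.61 after co-exposure and 0.55 after ozone.
Ctsa, Ctsb and Tpp1 also rose in both comparisons, by 0.33 to 0.47.
Cathepsin L (Ctsl) was the exception, at -0.11 ± 0.09 after co-exposure and -0.16 ± 0.09 after ozone, with adjusted p = 0.392 after co-exposure and 0.209 after ozone.

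Among the 7 glycosidases, 4 were higher after co-exposure on Day4 and 3 after ozone.
Gusb, beta-glucuronidase, which cleaves glycosaminoglycans, was at 92.5, 85.5 and 68.5 CPM in CB-O3 lungs and 92.4, 87.03 and 87.8 CPM in O3 lungs, against 61.3, 47.2 and 43.9 CPM in sham lungs.
Both exposed groups lay above sham (log2 fold change 0.69 ± 0.14, adjusted p = 0.000341 for co-exposure and 0.81 ± 0.14, adjusted p = 0.000112 for ozone).
Glb1, which removes galactose from gangliosides and keratan sulfate, rose by 0.51 after co-exposure and 0.41 after ozone, and Hexa, the alpha subunit of beta-hexosaminidase, by 0.30 after co-exposure and 0.33 after ozone.
Gla, which degrades globotriaosylceramide, passed the test after co-exposure at 0.47 ± 0.14 but not after ozone at 0.37 ± 0.15.
The glycogen hydrolase Gaa, the alpha-mannosidase Man2b1 and the sialidase Neu1 did not pass in either comparison; Gaa was at 0.01 ± 0.12 after co-exposure and 0.23 ± 0.12 after ozone.

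Of the 8 lipid-turnover genes, 3 were higher after co-exposure and 5 after ozone on Day4, led by Npc2.
Npc2, which hands cholesterol to Npc1 for export from the lysosome (chr12:84754562-84773152), was at 2220, 2415 and 1808 CPM in CB-O3 lungs and 2022, 1915 and 2221 CPM in O3 lungs, against 1087, 1050 and 1053 CPM in sham lungs.
The lowest exposed library was far above the highest sham library, and the log2 fold changes were 1.01 ± 0.11, adjusted p = 1.33e-07 for co-exposure and 0.95 ± 0.11, adjusted p = 7.52e-07 for ozone.
Npc1 itself, the membrane cholesterol transporter, was at 128, 87.03 and 81.8 CPM in CB-O3 lungs and 141, 116 and 132 CPM in O3 lungs, against 127, 106 and 102 CPM in sham lungs.
The groups overlapped, and the log2 fold change of Npc1 was -0.17 ± 0.13 for co-exposure and 0.22 ± 0.13 for ozone and did not pass. Asah1, acid ceramidase, rose by 0.40 after co-exposure and 0.55 after ozone, and Grn, progranulin, a secreted and lysosomal protein, by 0.32 after co-exposure and 0.33 after ozone.
Lipa, the acid lipase that frees cholesterol and fatty acids from lipoproteins, passed after ozone at 0.68 ± 0.17, adjusted p = 0.00481, and stood at 0.37 ± 0.17, adjusted p = 0.0917 after co-exposure.
Smpd1, acid sphingomyelinase, passed after ozone at 0.38 ± 0.11 and stood at 0.15 ± 0.11 after co-exposure.
The thioesterase Ppt1 and Psap did not pass in either comparison.

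**Figure D2:**
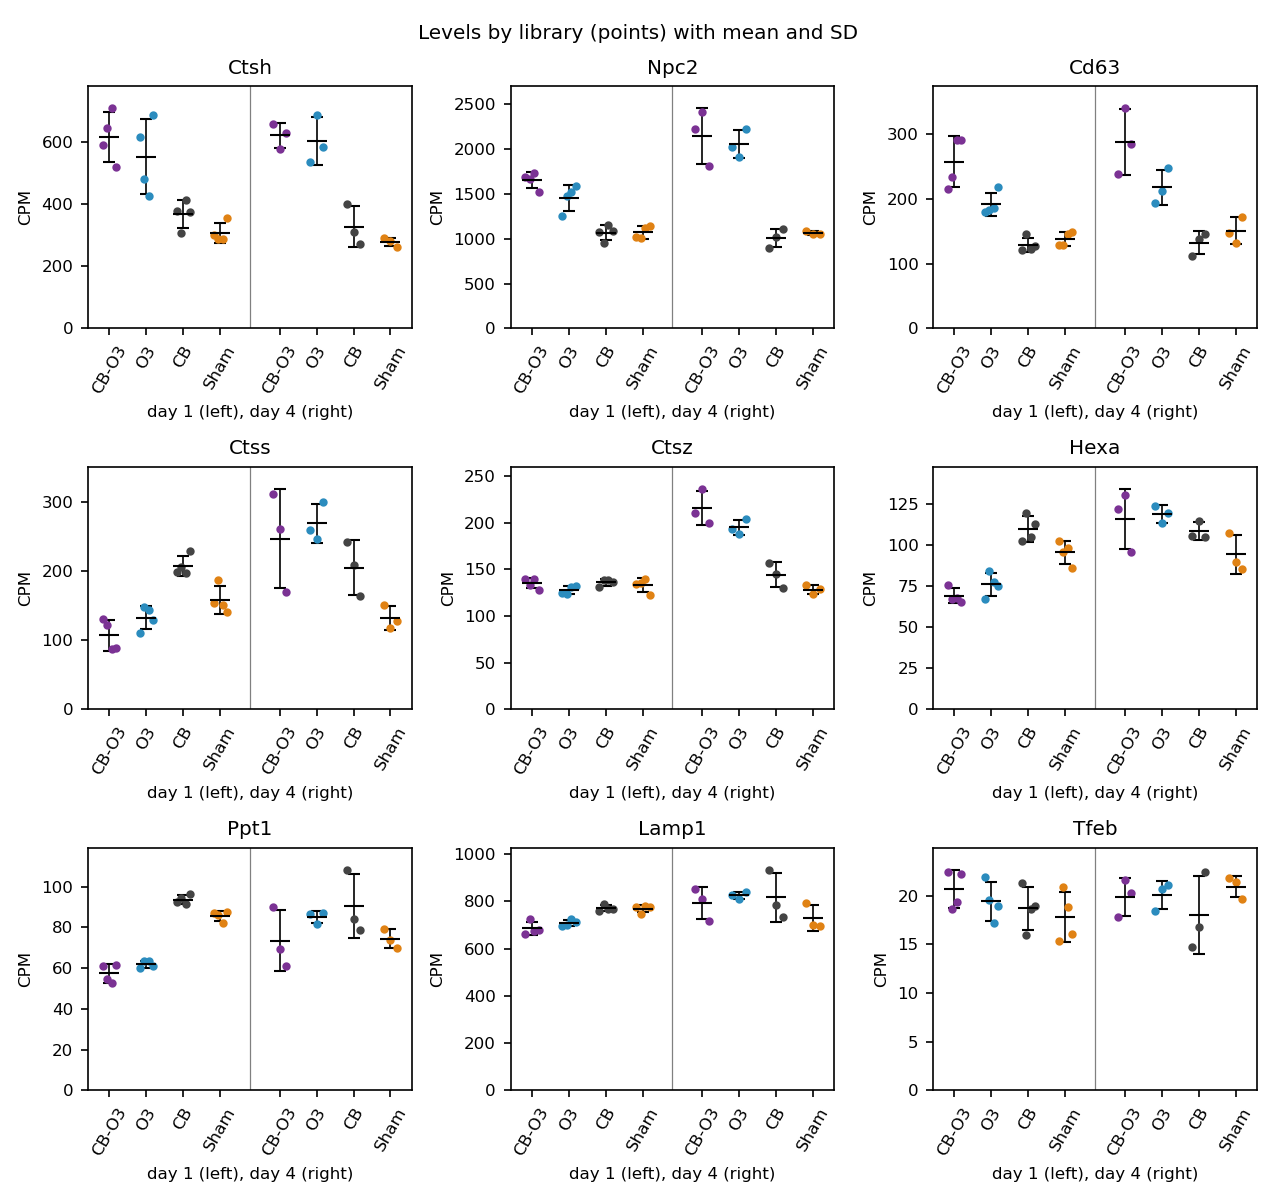
CPM per library (points) with the group mean and SD (bars) for Ctsh, Npc2, Cd63, Ctss, Ctsz, Hexa, Ppt1, Lamp1 and Tfeb, in CB-O3, O3, CB and Sham lungs, Day1 at the left and Day4 at the right of each panel; axes start at 0. Ctsh and Npc2 are above sham on both days in the CB-O3 and O3 groups, Ctss and Ctsz are above it on Day4, and Lamp1 and Tfeb did not pass the test.

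Of the 6 membrane proteins, 2 were higher after co-exposure and 3 after ozone on Day4.
Cd68, macrosialin, a heavily glycosylated protein of macrophage lysosomes (chr11:69664213-69666153), showed the largest rise of all 43 genes after ozone: 71.8, 60.95 and 58.5 CPM in O3 lungs, against 24.4, 21.4 and 23.7 CPM in sham lungs.
In CB-O3 lungs it was at 65.1, 49.98 and 40.4 CPM, also entirely above sham, and the log2 fold changes were 1.16 ± 0.19, adjusted p = 5.06e-05 for co-exposure and 1.46 ± 0.19, adjusted p = 4.72e-06 for ozone.
Cd63, a tetraspanin of late endosomes and lysosomes (chr10:128900989-128912822), was at 238, 339.8 and 284 CPM in CB-O3 lungs and 193, 212 and 247 CPM in O3 lungs, against 147, 132 and 173 CPM in sham lungs, again without overlap.
Its log2 fold change was 0.93 ± 0.14, adjusted p = 1.09e-05 for co-exposure and 0.53 ± 0.14, adjusted p = 0.00708 for ozone.
Scarb2, the receptor that carries glucocerebrosidase to lysosomes, passed after ozone at 0.45 ± 0.12 and stood at 0.17 ± 0.12 after co-exposure. Lamp1 was at 851, 812 and 717 CPM in CB-O3 lungs and 826, 812 and 838 CPM in O3 lungs, against 792, 702 and 697 CPM in sham lungs.
Its O3 libraries lay above the sham libraries and its CB-O3 libraries overlapped them, and neither comparison passed (log2 fold change 0.12 ± 0.09, adjusted p = 0.298 for co-exposure; 0.18 ± 0.09, adjusted p = 0.155 for ozone).
Lamp2, the partner of Lamp1, and Mcoln1, the calcium channel of the lysosome, did not pass either, at 0.23 and -0.10 after co-exposure and 0.29 and -0.02 after ozone.

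Of the 10 proton pump subunits, 5 were higher on Day4 after co-exposure, with a median log2 fold change of 0.27, and 5 after ozone, with a median of 0.28.
In the V0 sector 2 of 4 were higher after co-exposure and 3 of 4 after ozone.
Atp6v0d1, which couples the 2 sectors, was at 126, 128 and 106 CPM in CB-O3 lungs and 121, 115 and 128 CPM in O3 lungs, against 95.3, 94.3 and 85.1 CPM in sham lungs.
The exposed libraries did not overlap sham, and the log2 fold changes were 0.39 ± 0.09, adjusted p = 0.00103 for co-exposure and 0.40 ± 0.09, adjusted p = 0.00128 for ozone.
Atp6v0c, the proteolipid of the proton-carrying ring, rose by 0.41 ± 0.09 after co-exposure and 0.30 ± 0.09 after ozone.
Atp6v0a1, the large membrane subunit, passed after ozone at 0.33 ± 0.09 and stood at 0.02 ± 0.09 after co-exposure, and Atp6v0b, another ring subunit, did not pass in either. In the V1 sector 3 of 6 were higher after co-exposure, Atp6v1c1, Atp6v1d and Atp6v1e1, and 2 of 6 after ozone, Atp6v1a and Atp6v1c1.
Atp6v1a, the catalytic subunit, was at 198, 158 and 132 CPM in CB-O3 lungs and 193, 183 and 186 CPM in O3 lungs, against 156, 141 and 136 CPM in sham lungs.
The O3 libraries were all above sham, whereas the CB-O3 libraries spanned it (log2 fold change 0.17 ± 0.13, adjusted p = 0.303 for co-exposure; 0.38 ± 0.13, adjusted p = 0.0326 for ozone).
Atp6v1c1, the stalk subunit that regulates assembly, passed in both at 0.28 after co-exposure and 0.35 after ozone, and Atp6v1b2 and Atp6v1h did not pass in any comparison with sham.

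Neither transcription factor passed as higher on Day4.
Tfeb was at 17.8, 21.6 and 20.3 CPM in CB-O3 lungs and 18.5, 20.7 and 21.1 CPM in O3 lungs on Day4, against 21.8, 21.4 and 19.7 CPM in sham lungs.
The groups overlapped, with log2 fold changes of -0.07 ± 0.14, adjusted p = 0.725 for co-exposure and -0.06 ± 0.14, adjusted p = 0.819 for ozone.
Across its 6 comparisons with sham Tfeb was between −0.21 and 0.22 and passed in none.
Tfe3 was at 40.97, 49.7 and 36.9 CPM in CB-O3 lungs and 46.6, 47.1 and 48.0 CPM in O3 lungs, against 50.98, 51.01 and 48.02 CPM in sham lungs.
It was lower after co-exposure, at -0.23 ± 0.09, adjusted p = 0.0414, although CB-O3 replicate 2 lay within the sham range, and stood at -0.08 ± 0.09, adjusted p = 0.547 after ozone.
The Tfe3 call was lost without CB-O3 replicate 3, Sham replicate 1 or Sham replicate 2, and without the 4 libraries with muscle RNA, where 0 genes were lower.

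Of the calls on Day4, 15 of the 25 for ozone and 17 of the 24 for co-exposure were kept whichever library was left out.
Those lost at least once were Tpp1, Hexa, Glb1, Smpd1, Grn, Cd63, Scarb2, Atp6v0a1, Atp6v0c and Atp6v1a for ozone, and Tpp1, Hexa, Gla, Asah1, Atp6v1d, Atp6v1e1 and Tfe3 for co-exposure.
Relative to the mean of same-day sham lungs, the median of the 43 genes (log2 ratio with 0.5 CPM added) was 0.38, 0.37 and 0.16 in the 3 CB-O3 libraries and 0.37, 0.31 and 0.37 in the 3 O3 libraries.
CB-O3 replicate 3, one of the libraries with muscle RNA, was the low one, with 27 of 43 genes above the sham mean. Among the sham libraries themselves, replicate 1 had 38 genes above that mean, and replicates 2 and 3 had 12 and 13. Their medians were 0.08, -0.06 and -0.05, so the count alone does not tell exposed from sham libraries. Markers of several cell types moved on the same day, some up and some down.
The 8 alveolar macrophage markers summed to 1763, 1147 and 703 CPM in the CB-O3 libraries and 1277 to 1587 CPM in O3 lungs, against 554 to 798 CPM in sham lungs. Of that sum Chil3 alone held a mean of 891.8 CPM in CB-O3 lungs, 1062 CPM in O3 lungs and 408.4 CPM in sham lungs.
In that list 3 were higher and 1 lower after co-exposure, and 2 were higher after ozone.
CB-O3 replicate 3 was the lowest of its group in this sum, and also in the endothelial (895.7 CPM) and T and NK cell (15.54 CPM) sums. It was the highest in the neutrophil (1293 CPM), club (48110 CPM) and ciliated cell (923.9 CPM) sums. A link of any of these to its low median was not tested.
The 7 markers of phagocytic macrophages summed to 1524 to 1601 CPM in CB-O3 lungs and 1241 to 1351 CPM in O3 lungs, against 1062 to 1136 CPM in sham lungs, and 5 of 7 were higher in each comparison. Cd9 and Lpl made most of that sum, at means of 703.2 and 332.0 CPM in CB-O3 lungs. They were at 614.2 and 250.3 CPM in O3 lungs and 476.3 and 361.1 CPM in sham lungs, so the Lpl means were below sham.
The 6 markers shared by macrophages summed to 231 to 269 CPM in CB-O3 lungs and 237 to 252 CPM in O3 lungs, against 229 to 232 CPM in sham lungs.
Of these, 2 were higher and 2 lower after co-exposure, and 3 were higher and 1 lower after ozone.
The 7 markers of interstitial macrophages and monocytes summed to 171 to 241 CPM in CB-O3 lungs and 140.0 to 177 CPM in O3 lungs, against 104 to 179 CPM in sham lungs.
The 12 neutrophil markers summed to 657 to 1293 CPM in CB-O3 lungs and 339.9 to 586 CPM in O3 lungs, against 127 to 189.5 CPM in sham lungs, with 2 of 12 higher after co-exposure and 1 of 12 after ozone. Ltf alone held a mean of 715.8 of 939.9 CPM of that sum in CB-O3 lungs. It held 371.6 of 500.8 CPM in O3 lungs and 59.9 of 155.1 CPM in sham lungs.
The 6 endothelial markers summed to 896 to 1598 CPM in CB-O3 lungs and 1696 to 1746 CPM in O3 lungs, against 2316 to 3100 CPM in sham lungs, with 6 of 6 lower after co-exposure and 4 of 6 after ozone.
The 6 markers of T and NK cells summed to 15.5 to 20.4 CPM in CB-O3 lungs and 20.9 to 25.01 CPM in O3 lungs, against 41.2 to 44.4 CPM in sham lungs, with 4 of 6 lower after co-exposure and 5 of 6 after ozone.
The 5 B cell markers summed to 44.2 to 74.6 CPM in CB-O3 lungs and 62.2 to 94.7 CPM in O3 lungs, against 119 to 193 CPM in sham lungs, with 5 of 5 lower after co-exposure and 2 of 5 after ozone.
Thus the lymphocyte and endothelial sums were below sham where the phagocytic sum was above it.
Of the epithelial and fibroblast lists, alveolar type 1 (7 genes) had 2 higher and 1 lower after co-exposure and 2 higher after ozone, alveolar type 2 (10) had 1 higher after co-exposure and 2 after ozone, and fibroblast (4) had 2 higher and 1 lower after co-exposure and 2 higher after ozone.
Club cell markers (3) had 1 lower after co-exposure and 2 after ozone, and ciliated cell markers (4) had 2 higher after co-exposure and 1 lower after ozone.
No marker of these lists was at 0 in a whole group, none is among the 43 genes, and their part in the changes of the 43 genes was not tested.

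**Figure D3:**
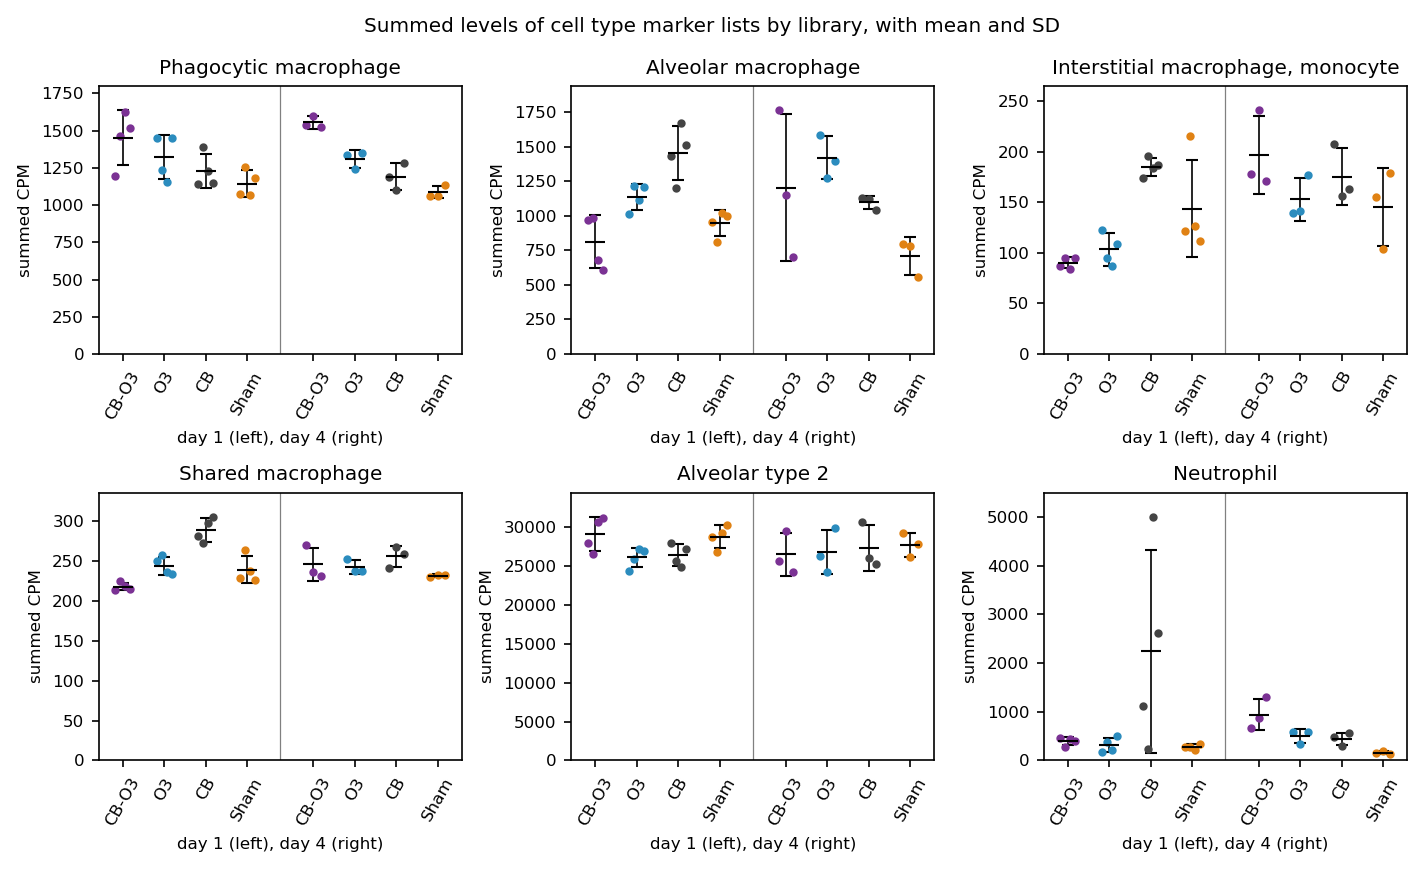
Summed CPM of 6 marker lists per library (points; one panel a list: phagocytic, alveolar, interstitial or monocyte and shared macrophage, alveolar type 2 cell, neutrophil) in CB-O3, O3, CB and Sham lungs on Day1 and Day4. On Day4 the phagocytic macrophage sum is 1524 to 1601 CPM in CB-O3 lungs and 1241 to 1351 CPM in O3 lungs, against 1062 to 1136 CPM in sham lungs.

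A single exposure gave changes in both directions.
On Day1, 6 of the 43 genes were higher and 8 lower after co-exposure, where 10.1% of all genes were higher and 9.09% lower, and 5 were higher and 3 lower after ozone, where 6.82% and 4.63% were. Apart from the 8 lower after co-exposure, these counts were not far above what the all-gene shares give for 43 genes.
The median log2 fold change of the 43 genes was −0.00 after co-exposure and 0.01 after ozone.
Ctsh was at 590.1, 646, 711 and 520.0 CPM in CB-O3 lungs and 618, 482, 428 and 689.6 CPM in O3 lungs, against 302, 287, 288 and 355 CPM in sham lungs.
No exposed library was as low as a sham library, and the log2 fold changes were 1.00 ± 0.14, adjusted p = 1.42e-05 for co-exposure and 0.85 ± 0.14, adjusted p = 0.000192 for ozone.
Npc2 was at 1691, 1671, 1736 and 1526 CPM in CB-O3 lungs and 1256, 1472, 1517 and 1589 CPM in O3 lungs, against 1019, 1006, 1124 and 1137 CPM in sham lungs.
It too was separated from sham in both groups, at 0.63 ± 0.10, adjusted p = 5.3e-05 for co-exposure and 0.44 ± 0.10, adjusted p = 0.00293 for ozone.
Cd63 was at 215, 233, 290.3 and 290.1 CPM in CB-O3 lungs and 180.2, 183, 185 and 218 CPM in O3 lungs, against 129, 129, 146 and 148 CPM in sham lungs.
Both groups were above sham and the co-exposed lungs reached higher, at 0.90 ± 0.12, adjusted p = 1.05e-05 for co-exposure and 0.47 ± 0.12, adjusted p = 0.0104 for ozone. Atp6v0a1 rose in both, by 0.23 after co-exposure and 0.24 after ozone. Ctsl and Atp6v0c passed after co-exposure at 0.24 ± 0.08 and 0.24 ± 0.07, and Cd68 after ozone at 0.56 ± 0.17. For Ctsl the CB-O3 libraries overlapped sham, with replicate 1 at 198 CPM and the others at 242 to 246 CPM.

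The 8 genes that were lower after co-exposure on Day1 were all hydrolases or lipid-turnover genes, and the 3 lower after ozone were among them.
Ppt1, palmitoyl-protein thioesterase, which removes fatty acids from proteins, was at 61.1, 54.5, 52.6 and 61.7 CPM in CB-O3 lungs and 60.2, 63.4, 63.4 and 60.96 CPM in O3 lungs, against 87.3, 86.03, 82.4 and 87.5 CPM in sham lungs.
All 8 exposed libraries were below all 4 sham libraries, with log2 fold changes of -0.58 ± 0.10, adjusted p = 0.000143 for co-exposure and -0.47 ± 0.10, adjusted p = 0.00181 for ozone.
Npc1 was at 92.7, 91.98, 94.2 and 83.1 CPM in CB-O3 lungs and 107, 113, 112 and 111 CPM in O3 lungs, against 153, 144, 129.5 and 132 CPM in sham lungs.
It fell where its partner Npc2 rose, without overlap with sham (-0.63 ± 0.11, adjusted p = 0.000266 for co-exposure; -0.33 ± 0.11, adjusted p = 0.0476 for ozone).
Hexa was at 75.9, 67.6, 68.1 and 65.7 CPM in CB-O3 lungs and 67.5, 84.4, 77.8 and 75.1 CPM in O3 lungs, against 102, 96.1, 98.4 and 86.01 CPM in sham lungs.
The groups did not overlap, and the log2 fold changes were -0.47 ± 0.09, adjusted p = 0.00096 for co-exposure and -0.33 ± 0.09, adjusted p = 0.0222 for ozone.
Ctss was at 131, 122, 88.03 and 88.8 CPM in CB-O3 lungs and 110.5, 148, 143 and 129 CPM in O3 lungs, against 154, 186, 150.4 and 141 CPM in sham lungs.
It was lower after co-exposure (-0.56 ± 0.16, adjusted p = 0.0149), without overlap, and stood at -0.25 ± 0.16, adjusted p = 0.331 after ozone, with overlap.
Lipa, Psap, Man2b1 and Gaa also fell after co-exposure, by 0.35 to 0.49 on the log2 scale. Of the Day1 calls, 7 of 14 for co-exposure (Ctsh, Hexa, Npc1, Npc2, Psap, Ppt1 and Cd63) and 3 of 8 for ozone (Ctsh, Npc2 and Ppt1) were kept whichever library was left out.
Without the 4 libraries with muscle RNA, 4 were higher and 6 lower after co-exposure, and 4 higher and 2 lower after ozone.
For co-exposure the number higher was 3 without Sham replicate 1 or CB-O3 replicate 3.
The number lower was 4 without Sham replicate 2 and 5 without CB-O3 replicate 4.
For ozone the number higher was 2 without O3 replicate 4 and 3 without O3 replicate 3 or Sham replicate 4.
The number lower after ozone was 1 without O3 replicate 1 or 4 or Sham replicate 1 or 3. Alveolar macrophage markers summed to 611 to 982 CPM in CB-O3 lungs and 1011 to 1216 CPM in O3 lungs on Day1, against 812 to 1021 CPM in sham lungs.
There 2 of 8 were lower after co-exposure and 2 of 8 higher after ozone.
The shared macrophage markers summed to 214 to 224 CPM in CB-O3 lungs and 233 to 256 CPM in O3 lungs, against 226 to 263 CPM in sham lungs.
There 1 of 6 was higher and 2 of 6 lower after co-exposure, and 1 of 6 was higher after ozone.
The interstitial macrophage and monocyte markers summed to 84.4 to 95.5 CPM in CB-O3 lungs and 87.03 to 123 CPM in O3 lungs, against 112 to 216 CPM in sham lungs, with 2 of 7 lower after co-exposure and 1 of 7 after ozone.
The phagocytic list summed to 1197 to 1628 CPM in CB-O3 lungs and 1158 to 1450 CPM in O3 lungs. Both ranges reached higher than sham lungs, at 1066 to 1256 CPM, but overlapped them. In each comparison 2 of 7 were higher and 1 of 7 lower. Cd9 and Lpl made most of that sum, at means of 754.4 and 428.9 CPM in CB-O3 lungs. They were at 649.9 and 425.0 CPM in O3 lungs and 523.6 and 404.4 CPM in sham lungs. Fabp5 was below sham, at means of 79.3 CPM in CB-O3 lungs and 80.48 CPM in O3 lungs, against 120.6 CPM.
The endothelial markers summed to 1758 to 2498 CPM in CB-O3 lungs and 1956 to 2481 CPM in O3 lungs, against 2871 to 3262 CPM in sham lungs, with 5 of 6 lower after co-exposure and 4 of 6 after ozone.
The T and NK cell markers summed to 12.4 to 19.6 CPM in CB-O3 lungs and 17.5 to 26.8 CPM in O3 lungs, against 37.4 to 57.5 CPM in sham lungs, and 6 of 6 were lower in each comparison.
The B cell markers summed to 38.1 to 69.1 CPM in CB-O3 lungs and 45.8 to 80.5 CPM in O3 lungs, against 57.2 to 240.0 CPM in sham lungs, with 4 of 5 lower after co-exposure and 1 of 5 after ozone.
None of these markers was at 0 in a whole group, and their part in the Day1 changes was not tested.

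Carbon black alone changed 1 of the 43 genes on each day, Cd68, and in the same direction.
On Day1, 1.57% of all genes were higher and 0.0873% lower after carbon black, so 1 of 43 was near the share of all genes. On Day4 0.161% were higher and 0.047% lower.
Cd68 was at 43.96, 47.9, 42.2 and 52.6 CPM in CB lungs on Day1, against 30.8, 31.7, 31.9 and 20.2 CPM in sham lungs, and all CB libraries were above all sham libraries (log2 fold change 0.70 ± 0.17, adjusted p = 0.0231).
On Day4 it was at 74.2, 49.7 and 39.5 CPM in CB lungs, against 24.4, 21.4 and 23.7 CPM in sham lungs, again without overlap (1.22 ± 0.20, adjusted p = 0.00391).
The CB libraries of Day4 were far apart, with replicate 3, which held muscle RNA, the lowest.
Of the 43 genes 7 were higher and 0 lower at an unadjusted p under 0.05 on Day1, and 12 were higher and 1 lower on Day4. The share of all genes at that unadjusted threshold is not given here, so these counts have no baseline and are not read as a response of the set.
DESeq2 and limma-voom each called 1 gene higher and 0 lower on Day1, and on Day4 DESeq2 called 3 higher and limma-voom 1, with 0 lower by each tool.
Lysosomal genes other than Cd68 that were furthest from sham on Day4 included Lipa at 0.72 ± 0.17 and Ctsd at 0.68 ± 0.16, which did not pass. Without CB Day4 replicate 3, or without the 4 libraries with muscle RNA, 7 genes were higher on Day4; without replicate 3 those added were Asah1, Ctsd, Ctss, Lamp2, Lipa and Tpp1.
The Day1 call was lost without CB replicate 3 or 4 or without Sham replicate 1, 3 or 4, and both calls were lost when the fit held the CB and sham libraries of that day alone.
The alveolar macrophage markers summed to 1204 to 1671 CPM in CB lungs on Day1, against 812 to 1021 CPM in sham lungs.
On Day4 they summed to 1044 to 1129 CPM in CB lungs, against 554 to 798 CPM in sham lungs, with a median log2 fold change of 0.65.
In edgeR 0 of these 8 alveolar markers passed on either day, with 3 on Day1 and 6 on Day4 at an unadjusted p under 0.05.
In the phagocytic list 1 of 7 was higher on each day, Gpnmb, a glycoprotein of macrophage lysosomes, at 0.93 ± 0.21, adjusted p = 0.0213 on Day1 and 1.98 ± 0.26, adjusted p = 0.000683 on Day4.
That list summed to 1144 to 1388 CPM in CB lungs on Day1, against 1066 to 1256 CPM in sham lungs, and to 1104 to 1282 CPM in CB lungs on Day4, against 1062 to 1136 CPM in sham lungs.
Of the interstitial macrophage and monocyte markers 1 of 7 was higher on Day1.
The shared macrophage markers summed to 272 to 305 CPM in CB lungs on Day1, against 226 to 263 CPM in sham lungs.
On Day4 they summed to 241 to 267 CPM in CB lungs, against 229 to 232 CPM in sham lungs.
The neutrophil markers, 11 of 12 higher on Day1, summed to 236 to 4998 CPM in CB lungs, against 209.6 to 342 CPM in sham lungs.
The part of these markers in the Cd68 change was not tested.

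Co-exposed lungs were compared with lungs given each agent alone.
Against ozone alone, 0 of the 43 genes passed on Day1 and 0 on Day4, where 0% of all genes did on either day.
At an unadjusted p under 0.05, 3 genes were higher and 7 lower on Day1, and 1 was higher and 3 lower on Day4. These counts have no share of all genes at that threshold beside them.
DESeq2 called 0 on Day1 and 1 on Day4, Atp6v0a1, and limma-voom called 0 on each day.
Cd63 was at a log2 difference of 0.42 ± 0.12, adjusted p = 0.196 on Day1 and 0.40 ± 0.14, adjusted p = 0.122 on Day4, and Lipa at -0.54 ± 0.15, adjusted p = 0.196 on Day1.
Without CB-O3 Day4 replicate 1, 10 genes passed on Day4, of which 2, Atp6v0b and Cd63, were higher and 8 were lower. Against carbon black alone, 5 genes were higher and 14 lower on Day1, where 13.1% and 12.7% of all genes were, and 15 were higher and 2 lower on Day4, where 19.3% and 18.9% were.
The largest rises on Day1 were Cd63 (1.00 ± 0.12, adjusted p = 2.07e-06), Ctsh (0.74 ± 0.14) and Npc2 (0.63 ± 0.10).
The largest falls were Ctss (-0.95 ± 0.16, adjusted p = 9.47e-05), Lipa (-0.72 ± 0.15), Ppt1 (-0.70 ± 0.10) and Hexa (-0.67 ± 0.09).
Cd63 was at 215, 233, 290.3 and 290.1 CPM in CB-O3 lungs on Day1, against 122, 145, 123 and 127 CPM in CB lungs.
Ctss was at 131, 122, 88.03 and 88.8 CPM in CB-O3 lungs, against 199, 206, 197 and 229 CPM in CB lungs.
Neither gene overlapped between these groups.
On Day4 Cd63 (1.12 ± 0.14, adjusted p = 1.08e-06), Npc2 (1.09 ± 0.11, adjusted p = 6.82e-08), Ctsh (0.92 ± 0.16) and Ctsz (0.58 ± 0.08) were the most raised.
Npc1 (-0.40 ± 0.13) and Ppt1 (-0.29 ± 0.11) were the 2 that fell.
When the fit held those 2 Day4 groups alone, 4 genes passed.
Without the 4 libraries with muscle RNA 20 passed on Day1, with Atp6v0a1 gained, and 13 on Day4, with Atp6v1b2 gained and Ctsa, Gla, Npc1, Ppt1 and Atp6v0c lost.

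The response to both agents was then tested against the sum of the single responses on the log2 scale, as an interaction.
On Day1 1 of the 43 genes passed, Cd68, and on Day4 3 passed, Cd68, Ctsd and Lipa, all below the sum, where 1.24% of all genes were below it on Day1 and 0.605% on Day4, and 0.222% and 0.766% above it.
Cd68 on Day1 was at 35.9, 36.8, 29.5 and 27.1 CPM in CB-O3 lungs, 36.95, 43.4, 44.0 and 44.0 CPM in O3 lungs and 43.96, 47.9, 42.2 and 52.6 CPM in CB lungs, against 30.8, 31.7, 31.9 and 20.2 CPM in sham lungs.
Each single exposure thus exceeded sham, and the co-exposed lungs overlapped it; the interaction was -1.09 ± 0.24, adjusted p = 0.02.
On Day4 all 3 exposures raised Cd68 over sham to overlapping levels, and the interaction was -1.51 ± 0.27, adjusted p = 0.0193.
Ctsd was at 1004, 768 and 558 CPM in CB-O3 lungs, 1074, 834 and 924 CPM in O3 lungs and 588, 767 and 689.8 CPM in CB lungs, against 494, 414 and 372 CPM in sham lungs, and its interaction was -0.96 ± 0.22, adjusted p = 0.0407.
The CB and CB-O3 libraries overlapped and lay above sham.
Lipa was at 111, 78.1 and 64.6 CPM in CB-O3 lungs, 115, 96.8 and 102 CPM in O3 lungs and 119, 120.2 and 84.7 CPM in CB lungs, against 77.9, 57.5 and 60.6 CPM in sham lungs.
Its co-exposed libraries overlapped sham while the single-exposure libraries did not, and the interaction was -1.03 ± 0.24, adjusted p = 0.0407.
At an unadjusted p under 0.05, 11 genes were below the sum and 1 above it on Day1, and 14 were below and 2 above on Day4. Without the share of all genes at that threshold, these counts have no baseline.
At the threshold edgeR, DESeq2 and limma-voom each called 0 above it on either day.
When the fit held only the groups compared, 0 passed on Day4, which ends all 3 calls, and 7 passed on Day1, of which Cd63 was above the sum and the others below it.
With the replicate numbers as a block, 3 passed on Day1 and 8 on Day4, of which Cd63 was above the sum on Day4. These calls rest on single libraries: on Day1 none was left without CB-O3 replicate 3 or 4, CB replicate 4 or Sham replicate 4, while 2 passed without CB-O3 replicate 1 or Sham replicate 2 and 3 without CB-O3 replicate 2.
On Day4 none was left without CB-O3 replicate 2 or 3, O3 replicate 1 or Sham replicate 3.
There 1 was left without O3 replicate 2 or 3, CB replicate 1 or 2 or Sham replicate 2.
In turn 12 passed without CB replicate 3 and 15 without CB-O3 replicate 1, and in each of these 2 genes, Cd63 and Atp6v0b, were above the sum and the others below it.
Without the 4 libraries with muscle RNA, 4 genes, Cd68, Ctss, Lipa and Man2b1, passed on Day1 and 1, Cd68, on Day4.
Of the alveolar macrophage markers 3 of 8 were below the sum on Day1 and 1 of 8 on Day4; Mrc1, the mannose receptor, was at -1.32 ± 0.24, adjusted p = 0.0104 on Day1 and -1.07 ± 0.27, adjusted p = 0.0493 on Day4.
Of the phagocytic list 1 of 7 was below it on each day, Gpnmb, at -1.43 ± 0.31, adjusted p = 0.0202 on Day1 and -2.30 ± 0.35, adjusted p = 0.00661 on Day4.
Its other 6 genes did not pass and lay on both sides of 0, from -0.70 (Trem2) to 0.13 (Cd9) on Day1 and from -0.23 (Trem2) to 0.25 (Spp1) on Day4.
On Day1 1 of 6 shared macrophage markers and 5 of 12 neutrophil markers were also below the sum.
In all, the alveolar list summed to 611 to 982 CPM in CB-O3 lungs, 1011 to 1216 CPM in O3 lungs and 1204 to 1671 CPM in CB lungs on Day1, against 812 to 1021 CPM in sham lungs.
The part of these cells in the interaction was not tested.

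**Figure D4:**
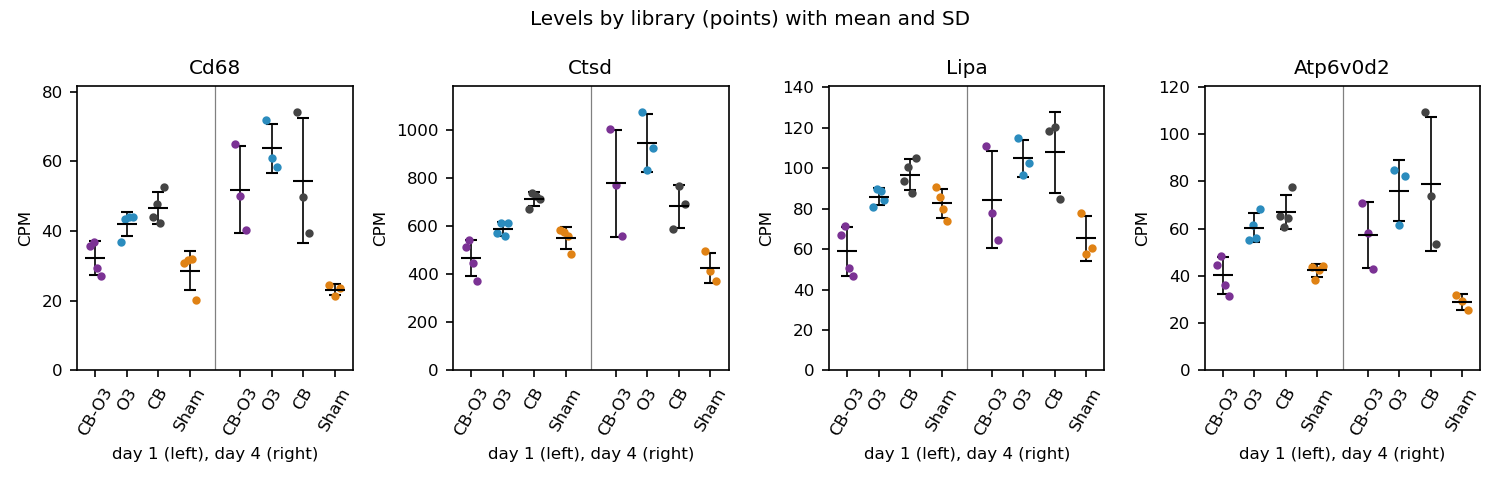
CPM per library (points) with group mean and SD for Cd68, Ctsd, Lipa and Atp6v0d2 in CB-O3, O3, CB and Sham lungs on Day1 and Day4; axes start at 0. On Day1 Cd68 is 27.1 to 36.8 CPM in CB-O3 lungs and 42.2 to 52.6 CPM in CB lungs.

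The signed log2 fold change against same-day sham was higher on Day4 than on Day1 for 12 of the 43 genes after ozone. After co-exposure it was higher for 15, where 2.36% of all genes were higher for ozone and 5.44% for co-exposure. It was lower for 0 of the 43 in each, where 1.88% and 4.79% of all genes were. A higher value need not be a larger change: Psap after co-exposure fell on Day1 and did not pass on Day4.
For carbon black 0 of the 43 genes differed, where 0.094% of all genes did; 1 was higher and 1 lower at an unadjusted p under 0.05, and DESeq2 and limma-voom called 0.
For the 0 lower differences, 1 gene after ozone and 2 after co-exposure were lower at an unadjusted p under 0.05. DESeq2 called 0 lower after ozone and 1 after co-exposure, and limma-voom 0 in each.
Ctss had the largest difference between days: its log2 fold change was 0.90 ± 0.18 on Day4 and -0.56 ± 0.16 on Day1 after co-exposure.
The difference was 1.46 ± 0.24, adjusted p = 0.000315 after co-exposure and 1.28 ± 0.24, adjusted p = 0.0024 after ozone.
Hexa was higher than in sham lungs on Day4 and lower on Day1 in both, with differences of 0.76 ± 0.14, adjusted p = 0.000978 for co-exposure and 0.66 ± 0.14, adjusted p = 0.00643 for ozone.
Ctsd differed by 1.10 ± 0.21 after co-exposure and 1.05 ± 0.21 after ozone, Gusb by 1.00 ± 0.18 after co-exposure and 0.87 ± 0.18 after ozone, and Ctsz by 0.72 ± 0.10 after co-exposure and 0.66 ± 0.10 after ozone.
Ctsz was at 140.1, 133, 139 and 128 CPM in CB-O3 lungs and 124, 123, 131 and 132 CPM in O3 lungs on Day1, against 134, 135, 139.8 and 122 CPM in sham lungs, with all groups overlapping on that day.
Ppt1, lower on Day1, differed by 0.56 ± 0.15 after co-exposure and 0.66 ± 0.15 after ozone, Grn by 0.52 ± 0.12 after co-exposure and 0.55 ± 0.12 after ozone, and Ctsa by 0.51 ± 0.10 after co-exposure and 0.46 ± 0.10 after ozone.
Ctsh did not differ between days past the threshold, at 0.16 ± 0.21, adjusted p = 0.698 for co-exposure and 0.27 ± 0.21, adjusted p = 0.575 for ozone.
Nor did Cd63, at 0.03 ± 0.18, adjusted p = 0.938 after co-exposure and 0.06 ± 0.18, adjusted p = 0.923 after ozone.
Without single libraries in turn, 8 of the 12 ozone differences and 11 of the 15 for co-exposure were always kept.
Without the 4 libraries with muscle RNA, 17 differences passed after co-exposure, with Ctsc, Npc2 and Tpp1 gained and Ctsb lost, and the same 12 after ozone.
Those lost without a single library were Lgmn, Npc2, Cd68 and Atp6v1c1 for ozone and Ctsb, Psap, Lipa and Atp6v1c1 for co-exposure.

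**Figure D5:**
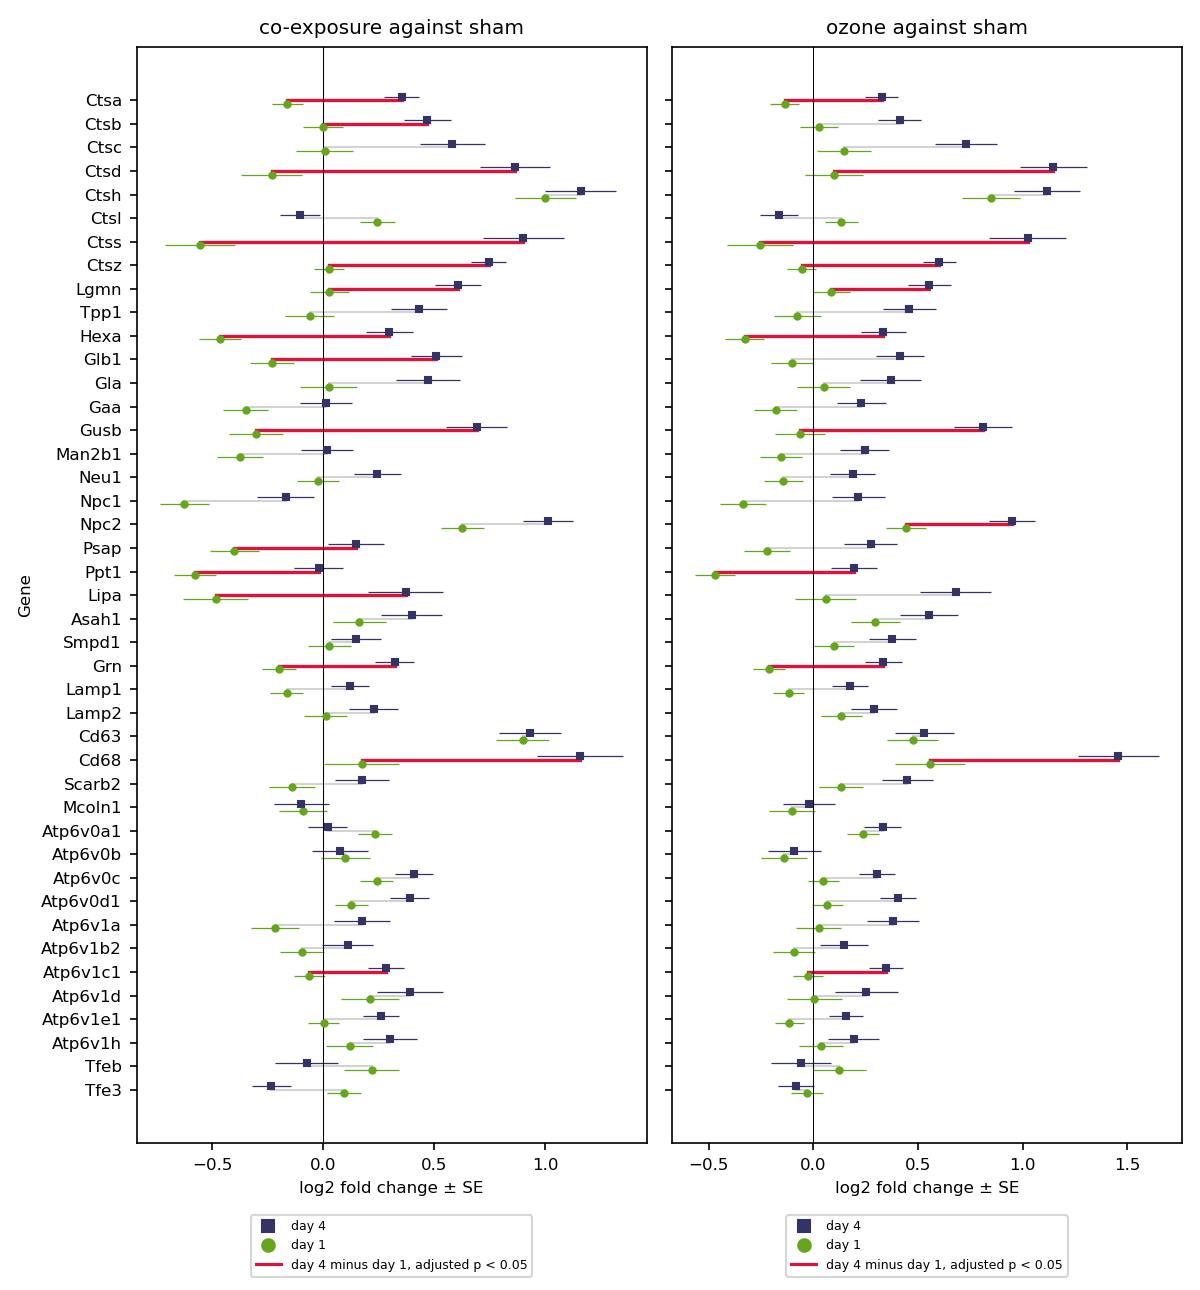
Log2 fold change against same-day sham with SE for each of the 43 genes on Day4 (dark squares) and Day1 (green circles), co-exposure in the left panel and ozone in the right. A red line joins the 15 and 12 genes whose signed Day4 change was higher than their Day1 change. For Ctss the co-exposure values are 0.90 on Day4 and −0.56 on Day1.

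Other genes of the pathway were read from 6 lists chosen with earlier results of these data known, with 116 genes in all, and their counts stand against the all-gene shares of 17.7% higher and 16.3% lower after co-exposure on Day4, and 11.7% higher and 9.07% lower after ozone.
Of the 34 other hydrolases, 10 (29.4%) were higher and 6 (17.6%, near the share of all genes) lower after co-exposure on Day4, and 12 (35.3%) were higher and 1 (2.94%) lower after ozone.
Ctsk, cathepsin K, a strong collagenase, was at 100.1, 89.3 and 50.1 CPM in CB-O3 lungs and 94.7, 81.05 and 92.3 CPM in O3 lungs, against 18.2, 19.1 and 19.6 CPM in sham lungs.
The groups were far apart, with log2 fold changes of 2.08 ± 0.19, adjusted p = 8.19e-09 for co-exposure and 2.24 ± 0.19, adjusted p = 5.41e-09 for ozone.
It also rose after carbon black on Day4, at 1.18 ± 0.19, adjusted p = 0.00391.
Galc, which degrades galactosylceramide, rose by 0.89 after co-exposure and 1.01 after ozone, and the endolysosomal nuclease Pld3 by 0.65 after co-exposure and 0.81 after ozone.
On Day1, 9 of the 34 (26.5%) were lower after co-exposure, where 9.09% of all genes were, and 5 (14.7%) were lower and 1 (2.94%) higher after ozone, where 4.63% and 6.82% were.
Gm2a, the activator protein for the breakdown of GM2 ganglioside, was at -0.50 ± 0.10 after co-exposure and -0.44 ± 0.10 after ozone. Of the 14 other V-ATPase genes tested, 5 (35.7%) were higher and 1 (7.14%) lower after co-exposure on Day4, and 2 (14.3%) higher and 1 (7.14%) lower after ozone.
Atp6v0d2, the form of the d subunit found in macrophages and osteoclasts, was at 70.7, 58.2 and 42.9 CPM in CB-O3 lungs, 84.6, 61.3 and 82.1 CPM in O3 lungs and 109, 73.6 and 53.4 CPM in CB lungs, against 31.99, 29.4 and 25.5 CPM in sham lungs.
Every exposed library was above sham.
It rose after all 3 exposures (0.99 ± 0.20, 1.39 ± 0.20 and 1.43 ± 0.21 for co-exposure, ozone and carbon black), and its interaction was -1.84 ± 0.28, adjusted p = 0.00661.
Among the 15 nutrient-sensing genes Flcn, folliculin, which acts with mTORC1 to hold TFE factors in the cytoplasm, fell to 29.8, 25.98 and 27.4 CPM in CB-O3 lungs and 42.6, 33.9 and 37.1 CPM in O3 lungs, against 47.9, 56.5 and 50.8 CPM in sham lungs.
All exposed libraries were below sham, at -0.90 ± 0.15, adjusted p = 3.29e-05 for co-exposure and -0.45 ± 0.14, adjusted p = 0.0253 for ozone.
Tfec, a TFE family member of macrophages, rose by 0.97 ± 0.25 after co-exposure and 1.09 ± 0.25 after ozone.
In that list 3 (20.0%) were higher and 1 (6.67%) lower after co-exposure and 2 (13.3%) higher and 1 (6.67%) lower after ozone, so the shares higher were near those of all genes.
Of the 14 sorting genes, 2 (14.3%) were higher and 1 (7.14%) lower after co-exposure and 4 (28.6%) higher after ozone.
Gnptab, which makes the mannose 6-phosphate tag, was at 0.54 ± 0.16 after co-exposure and 0.74 ± 0.16 after ozone, and its receptor Igf2r at 0.45 ± 0.13 after co-exposure and 0.51 ± 0.13 after ozone.
Of the 20 other membrane and transport genes, 1 (5.0%) was higher and 2 (10.0%) lower after co-exposure and 5 higher and 1 (5.0%) lower after ozone.
Of the 18 autophagy genes, 3 (16.7%) were higher and 5 (27.8%) lower after co-exposure and 2 (11.1%) higher and 1 (5.56%) lower after ozone; the shares higher were near those of all genes.
Gabarapl1, an autophagosome protein, was at -0.58 ± 0.09 after co-exposure and -0.47 ± 0.09 after ozone, and the cargo receptor Sqstm1 at -0.37 ± 0.10 after co-exposure.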

How the data were processed

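Polyadenylated RNA of whole-lung homogenate from 28 libraries was sequenced from stranded, paired-end libraries. Per the labels' protocols, reads were quantified with Salmon 1.1.0 in its mapping-based mode. The submitters' processing notes also name mm10, R 3.6.3 and DESeq2, with no roles given. The deposited table holds the authors' estimated counts per Ensembl gene, not normalized; 17.7% of its values were not whole, and all were rounded. Names and positions came from GENCODE M21 (GRCm38), which named 35505 of 35880 IDs. CPM are estimated counts scaled by the TMM-adjusted library total. Promoters came from RefSeq (GRCm38.p6), and those printed were picked by the size of the Day4 ozone change, with the values known.

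Libraries were grouped by the labels. Genes were kept by filterByExpr (14887 genes, 99.9% of counts) and tested with edgeR 4.0.16 in R 4.3.3: TMM scaling (factors 0.902 to 1.05), 1 mean per group over all 28 libraries, the robust quasi-likelihood F test with 20 residual degrees of freedom, and Benjamini-Hochberg adjustment over all genes tested in each of 16 comparisons, with a threshold of 0.05. The typical variation between libraries of a group was 15.7%. Counts at an unadjusted p under 0.05 are given without the share of all genes at that threshold. The fit was tested on simulated data. Totals of 5135492 to 9718770 counts set the counting precision. Alternatives were median-of-ratios scaling, no filter, a filter of 1 CPM in 3 libraries, DESeq2 1.42.0, limma-voom (limma 3.58.1), only the compared groups, a replicate block and each library left out; leaving out the 4 libraries with muscle RNA was chosen after seeing the data.

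The 43 genes, the other pathway lists and the marker lists were chosen with earlier results of these data known. Values per library are given for the 5 largest rises and 3 largest falls among the calls of each comparison with sham. The exceptions on Day1 are Ctsl and Atp6v0c after co-exposure and Atp6v0a1 after ozone. For Ctsd, Lamp1, Cd68, Atp6v0d1, Atp6v1a, Tfeb and Tfe3 they are always given for ozone and co-exposure on Day4. In other comparisons genes with a small p or a large change are named, not always the 6 with the smallest p. Up to 4 are named from each other list. Genes outside this rule that are named, such as Acta1, Mrc1, Gpnmb and Sqstm1, were chosen after their values were seen.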

Additional observations from a re-analysis of the deposited data

Results flagged for a closer look

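Of 96 sets of 4 Day1 libraries examined over the named genes, 9 held a library far from the other 3, where chance flags about 1 in 20. Cd68 was at 36.9 CPM in O3 replicate 1, against 43.4 to 44.0 CPM in the other O3 libraries, and at 20.2 CPM in Sham replicate 4, against 30.8 to 31.9 CPM in the other sham libraries. Cd63 was at 218 CPM in O3 replicate 4, against 180.2 to 185 CPM. Ctsl was at 198 CPM in CB-O3 replicate 1, against 242 to 246 CPM, and at 242 CPM in O3 replicate 1, against 204 to 208 CPM. Atp6v1a was at 183 CPM in O3 replicate 4, against 163 to 165 CPM, and at 197 CPM in CB replicate 4, against 184 to 185 CPM. Man2b1 was at 95.2 CPM in CB-O3 replicate 1, against 79.8 to 81.8 CPM. Grn was at 191 CPM in Sham replicate 4, against 202.8 to 203.4 CPM.

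Interactions between the agents were flagged because the effect of carbon black differed with and without ozone (edgeR): Cd68 at −1.09 on Day1, and Cd68 at −1.51, Lipa at −1.03 and Ctsd at −0.96 on Day4, as log2 differences. The change against sham differed between Day4 and Day1 for 6 named genes in each exposure. After co-exposure the log2 differences were Ctsz 0.72, Ctss 1.46, Gusb 1.00, Hexa 0.76, Ctsd 1.10 and Ctsa 0.51. After ozone they were Ctsz 0.66, Ctss 1.28, Ctsd 1.05, Gusb 0.87, Grn 0.55 and Hexa 0.66.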

How the results depend on the processing

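No direction was reversed among the counts and named genes under any alternative that was run. Of the counts, the replicate numbers being treated as a block gave 3 genes higher after carbon black on Day4, an interaction in 3 genes on Day1 and in 8 on Day4, and no other count moved by over 1.5 times. Same-numbered libraries did not clearly deviate together (median r 0.04, from −0.25 to 0.48 over 42 pairs, against −0.02 for 108 pairs of unlike number). Correlations this spread cannot show whether the numbers pair the samples, and the labels do not say. Fitting only the compared groups gave 0 genes higher after carbon black on Day1 and 0 on Day4, 14 higher and 0 lower after co-exposure on Day4, 4 calls for co-exposure against carbon black on Day4, interactions in 7 genes on Day1 and 0 on Day4, and 20 ozone differences between days. DESeq2 gave 3 higher after carbon black on Day4, interactions in 4 genes on Day1 and 6 on Day4, and 1 call for co-exposure against ozone on Day4. With no filter, co-exposure gave 3 higher on Day1 and 0 lower on Day4. Without the 4 libraries with muscle RNA, carbon black gave 7 higher on Day4, co-exposure 0 lower on Day4, and interactions 4 on Day1 and 1 on Day4. Leaving out each library in turn, the counts ranged for carbon black from 0 to 1 on Day1 and 1 to 7 on Day4; for ozone on Day1 from 2 to 4 higher and 1 to 2 lower, and on Day4 from 18 to 26 higher; for co-exposure on Day1 from 3 to 6 higher and 4 to 10 lower, and on Day4 from 17 to 23 higher and 0 to 1 lower. They ranged from 0 to 10 for co-exposure against ozone on Day4, from 16 to 20 on Day1 and 14 to 20 on Day4 against carbon black, from 0 to 3 on Day1 and 0 to 15 on Day4 for the interaction, and from 8 to 11 for ozone and 11 to 19 for co-exposure between days. The cause of these shifts was not tested. Fits that left out libraries or groups also held fewer libraries. With 3 libraries a group on Day4, single libraries weigh most there, and the depth of 5135492 to 9718770 counts limits the genes of low level, such as Gla.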
